A study of Bos taurus with 6 samples.

Results

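The genes described here encode the proteins of the mitochondrial ribosome, measured in steers in the longissimus dorsi, the long muscle beside the spine. Members were the genes whose platform symbol starts with MRPL or MRPS followed by a number, each represented by its brightest probe set. The rule gave 67 of the 9155 named genes, 43 assigned by symbol to the large subunit and 24 to the small subunit. These 67 genes are covered by 84 probe sets, and RefSeq, for assembly ARS-UCD2.0, lists 78 protein-coding genes with such symbols; the others were not analysed here. All 67 representative probe sets passed the filter on low values, which left out the dimmest 25% of the array.

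The samples were total RNA from 3 Japanese Black and 3 Holstein steers, hybridised to 1 Affymetrix array each. Japanese Black cattle are raised for marbled beef, and Holstein cattle mainly for milk. Every steer, of either breed, had received energy-rich feed, so the comparison is between breeds under a shared feeding regimen, and no other feed was analysed here. Age and kinship of the animals are not given in the labels, and a breed was represented by 3 animals only. Precision is limited by the number of arrays, and p-values set a breed difference against the spread between these animals. The numbers 1 to 3 only name the animals and pair none of them.

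Mitochondria keep a small genome that encodes ribosomal RNAs, transfer RNAs and a few membrane subunits of the respiratory chain and ATP synthase. A ribosome of their own makes those subunits. Its RNAs come from the mitochondrial genome, whereas all of its proteins are encoded in the nucleus, made in the cytosol and imported. Compared with bacterial ribosomes it has less RNA and more protein, and many of its proteins have no bacterial counterpart. In skeletal muscle, which depends on oxidative phosphorylation, loss of single members in humans causes respiratory chain deficiency with muscle or heart disease.

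Across the arrays the signal median lay between 48.5 and 54.7 intensity units and the upper quartile between 172 and 205, with the highest value in Japanese Black 3. The labelled tissue matched its markers, with the fibre genes ACTA1, CKM, MYH1, MYH7, MB, TNNT1 and TNNT3 reading between 10090 and 15874 in every animal. Adipocyte markers varied between animals of the same breed. The median deviation of 5 measured adipocyte markers of 7 listed, from each gene's mean over all animals, ran from -1.48 in Holstein 3 to 1.40 in Japanese Black 3 on the log2 scale. The same measure for 4 smooth muscle markers ran from -0.61 in Japanese Black 2 to 1.08 in Japanese Black 3. Breed medians were below 0 under each scaling for endothelial (-0.27), fibroblast (-0.29), erythrocyte (-0.23) and leukocyte (-0.12) markers, with 0 markers called. Higher in Japanese Black were 1 of 7 endothelial, 1 of 5 fibroblast, 0 of 4 erythrocyte and 2 of 7 leukocyte markers. Several are dim: ALAS2, HBA, HBM, KDR, VWF and MS4A1 read at most 50.6 in any animal. The part of these markers in the members' values was not tested. In bulk muscle, fewer cells of a type and less RNA per cell cannot be told apart.

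The mitochondrial ribosome as a group had median breed differences close to 0. A difference is Japanese Black less Holstein in log2(signal + 16), a scale that understates changes of dim probe sets. The 43 large subunit genes had a median difference of 0.011, with 23 higher and 20 lower in Japanese Black. The 24 small subunit genes had a median of -0.0046, with 11 higher and 13 lower. Over all 18012 probe sets tested the median was 0.0067, with 51.0% higher. The even split depended on the scaling: after quantile normalization 12 of 43 large and 4 of 24 small subunit genes were higher, with medians of -0.076 and -0.088, while 48.8% of all probe sets were higher. With each array centred on its median the counts were 23 of 43 and 13 of 24, with medians of 0.027 and 0.011. It depended on a single animal too: without Japanese Black 3, 14 of 43 large and 9 of 24 small subunit genes were higher, with medians of -0.049 and -0.021. The median over all probe sets also fell then, to -0.027. Without Holstein 2, 19 of 43 large and 10 of 24 small subunit genes were higher, with medians of -0.026 and -0.020. The median over all probe sets was 0.013 in that fit. Whether such shifts were particular to the members was not tested.

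Of the 67 members, 0 passed an adjusted p of 0.05 in limma, where 0.0167% of all probe sets did. The plain unpaired t-test with Benjamini-Hochberg adjustment also called 0; its unadjusted p was under 0.05 for 2 members higher (2.99%, where 5.36% of all probe sets were) and 4 lower (5.97%, where 4.66% were). At an unadjusted limma p under 0.05 there were 3 members higher in Japanese Black, or 4.48%, where 7.31% of all probe sets lay on that side. A single member, 1.49%, was lower, where 5.28% of all probe sets were. The 3 animals of each breed lay on separate sides for 6 members higher in Japanese Black (8.96%, against 11.0% of all probe sets) and 4 lower (5.97%, against 8.84%). Without overlap in either direction there were 10 members, where 19.8% of all probe sets had none. Under limma and without scaling, these shares of members lay below those of the whole array. After quantile normalization 4 members were higher without overlap (5.97%, against 10.2% of all probe sets) and 9 lower (13.4%, against 9.46%), so on the lower side the order turned.

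The differences were small. The absolute difference was under 0.25 for 56 of 67 members, or 83.6%, compared with 60.7% of all probe sets. The limma 95% interval lay within 1.5-fold in both directions for 51 members and within 1 log2 unit for 64. The exceptions to the latter were MRPL12, MRPS36 and MRPS18A. A breed difference smaller than these intervals was not detectable with 3 animals per breed. Larger ones also went uncalled after adjustment. The intervals of MRPL12, MRPL44, MRPL18 and MRPS35 left out 0, yet their limma adjusted p lay between 0.321 and 0.392.

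**Figure D1:**
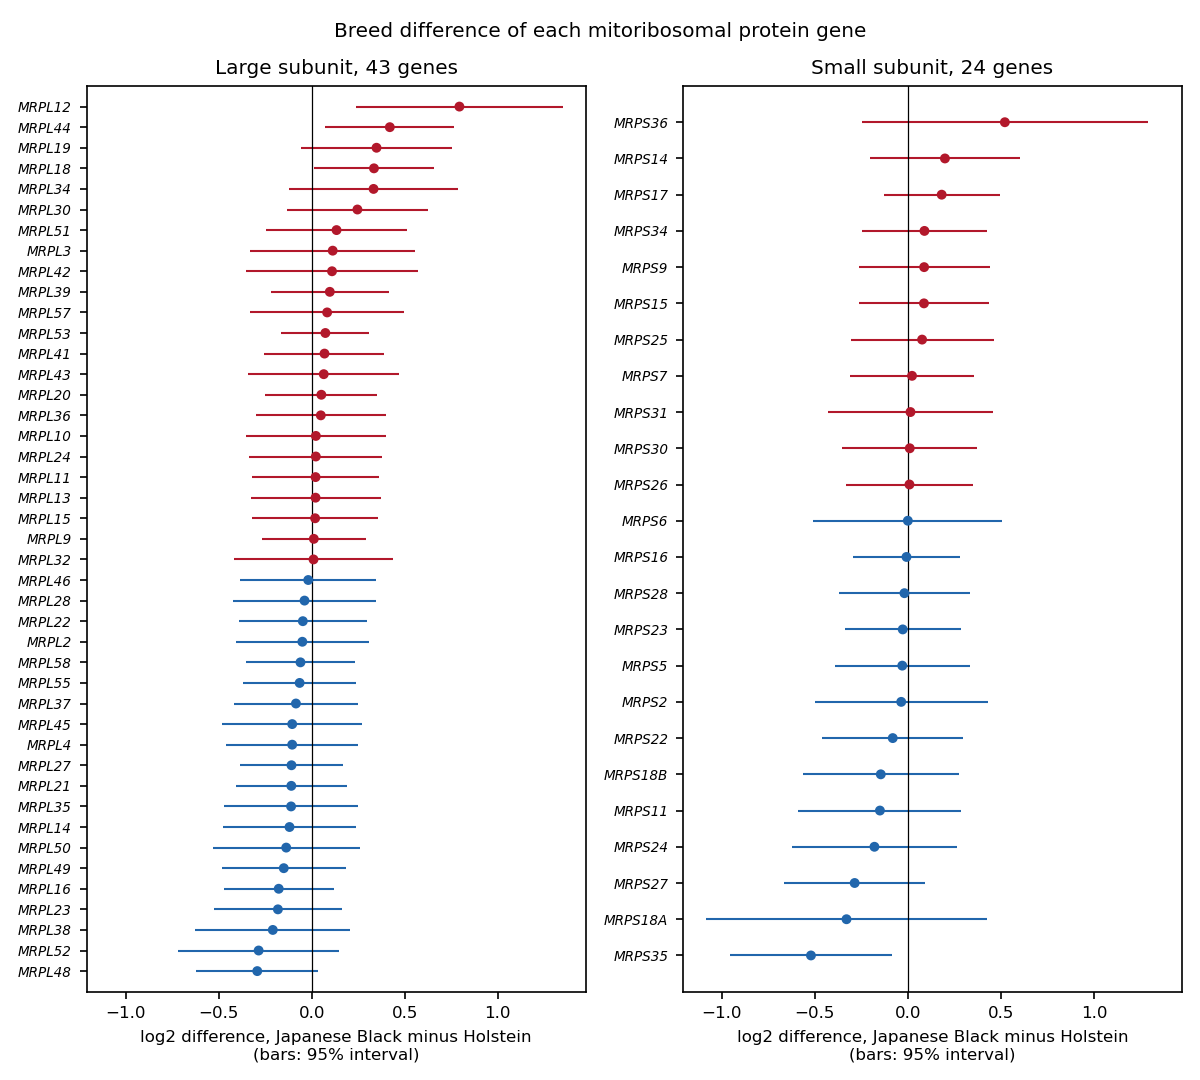
Log2 difference (Japanese Black minus Holstein, x axis) of each of 67 mitoribosomal protein genes (y axis), with limma 95% intervals; red points are above 0 and blue points below 0. Most intervals include 0; those of MRPL12, MRPL44, MRPL18 and MRPS35 do not, and the widest belong to MRPS36, MRPS18A and MRPL12.

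The difference furthest from 0 in the large subunit belonged to MRPL12. This protein forms the flexible stalk that recruits translation factors to the ribosome. Its signal was 282, 256 and 385 in Japanese Black 1 to 3 and 222, 119 and 179 in Holstein 1 to 3. Every Japanese Black animal was thus above every Holstein animal, but the values within each breed were also far apart. The difference was 0.79 (SE 0.25), or 1.73-fold, with a limma adjusted p of 0.321. Among fits with 1 array fewer it was lowest, at 0.57, when Holstein 2 was dropped and highest, at 0.98, when Holstein 1 was; the adjusted p ranged from 0.326 to 0.635. Its partners at the base of the stalk, MRPL10 and MRPL11, differed by 0.022 (SE 0.17) and 0.020 (SE 0.15), and the contrast with MRPL12 was not tested.

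MRPL44, a protein with an RNase III-like fold whose inherited variants cause heart muscle disease in humans, read 397, 391 and 441 in Japanese Black and 315, 314 and 278 in Holstein. The breeds did not overlap, and the values within each breed were close together. The difference was 0.42 (SE 0.15), or 1.34-fold, with an adjusted p of 0.351 in limma. MRPL18 lies in the central protuberance, where mammalian mitoribosomes hold a mitochondrial transfer RNA as a structural part. It read 1070, 984 and 1068 in Japanese Black and 877, 740 and 855 in Holstein, again without overlap. Its difference was 0.33 (SE 0.14), with an adjusted p of 0.392.

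MRPL19, the counterpart of a bacterial protein at the subunit interface, read 669, 671 and 746 in Japanese Black and 550, 658 and 440 in Holstein. The breeds were separated by a narrow gap between Japanese Black 1 and Holstein 2. The difference was 0.35 (SE 0.18), with an adjusted p of 0.451, and was 0.20 without Holstein 3. MRPL34, which also has a bacterial counterpart, read 1241, 1275 and 1555 in Japanese Black and 1025, 1406 and 847 in Holstein, so the breeds overlapped through Holstein 2. Its difference was 0.33 (SE 0.20), with an adjusted p of 0.503. It was 0.17 without Holstein 3 and 0.53 without Holstein 2.

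Toward Holstein, the large subunit gene with the smallest p was MRPL48, a mitochondria-specific protein of the central protuberance. It read 713, 694 and 701 in Japanese Black and 894, 774 and 935 in Holstein. The Japanese Black animals were nearly identical, and all lay below the Holstein animals. The difference was -0.29 (SE 0.14), with an adjusted p of 0.434. MRPL16, a protein with a bacterial counterpart, also did not overlap, at 1379, 1295 and 1386 against 1560, 1422 and 1621. It differed by -0.18 (SE 0.13). MRPL52 and MRPL38, both mitochondria-specific, overlapped between the breeds and differed by -0.29 (SE 0.19) and -0.21 (SE 0.18). MRPL52 was at -0.15 without Japanese Black 1 and -0.17 without Holstein 3. MRPL38 was at -0.073 without Holstein 3, -0.13 without Japanese Black 3 and -0.32 without Holstein 1.

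MRPL23, whose bacterial counterpart sits at the exit of the peptide tunnel, was measured by 3 probe sets that shared a direction. The brightest differed by -0.18 (SE 0.15), or -0.28 without Holstein 2, and overlapped. The other two did not overlap and differed by -0.29 each, with adjusted p of 0.431 and 0.436.

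The large subunit genes of highest mean signal were steady across the animals. Brightness depends on the probe set as well as on the RNA, so it gives no order of transcript levels. MRPL53, a mitochondria-specific protein, read 4116, 4077 and 4334 in Japanese Black and 3944, 4029 and 3930 in Holstein. Although the breeds did not overlap, the difference was 0.073 (SE 0.10). MRPL9 differed by 0.011 (SE 0.12) and MRPL27, which lies close to the peptidyl transferase centre, by -0.11 (SE 0.12), or -0.060 without Holstein 1.

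In the small subunit the smallest p belonged to MRPS35, a mitochondria-specific protein, on the side of Holstein. Its brighter probe set read 120, 174 and 180 in Japanese Black and 256, 223 and 215 in Holstein. All Japanese Black animals lay below all Holstein animals, with Japanese Black 1 lowest. The difference was -0.52 (SE 0.19), or 1.44-fold, with an adjusted p of 0.354. The dimmer probe set of the same gene also did not overlap and differed by -0.42 (SE 0.19), with an adjusted p of 0.397. The difference at the brighter probe set stayed between -0.62 and -0.35 over the alternatives, with adjusted p between 0.289 and 0.635.

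MRPS27, a member of the pentatricopeptide repeat family of RNA-binding proteins, read 244, 280 and 290 in Japanese Black and 364, 289 and 354 in Holstein. The breeds met at Holstein 2, and the difference was -0.29 (SE 0.17) with an adjusted p of 0.490. MRPS24, the counterpart of a bacterial protein at the messenger RNA entry, overlapped and differed by -0.18 (SE 0.20). It was at -0.041 without Holstein 3, -0.077 without Japanese Black 2 and -0.34 without Holstein 2. On the side of Japanese Black, MRPS17 was separated by breed, at 1020, 1056 and 1141 against 998, 954 and 881. It has a bacterial counterpart and differed by 0.18 (SE 0.14), with an adjusted p of 0.586. MRPS14 overlapped and differed by 0.20 (SE 0.18), and by 0.11 at its dimmer probe set. The brighter probe set was at 0.032 without Holstein 3, where it read 728, and at 0.31 without Holstein 1. MRPS34 differed by 0.088 and MRPS9 by 0.087.

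The bright small subunit genes MRPS16 and MRPS23 varied little. MRPS16, which has a bacterial counterpart, read 1252, 1229 and 1239 in Japanese Black and 1204, 1247 and 1292 in Holstein, a difference of -0.0083 (SE 0.13). MRPS23, which is mitochondria-specific, read 1202, 1201 and 1200 in Japanese Black and 1273, 1094 and 1322 in Holstein, a difference of -0.028 (SE 0.14). The spread of MRPS23 thus came from the Holstein animals.

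**Figure D2:**
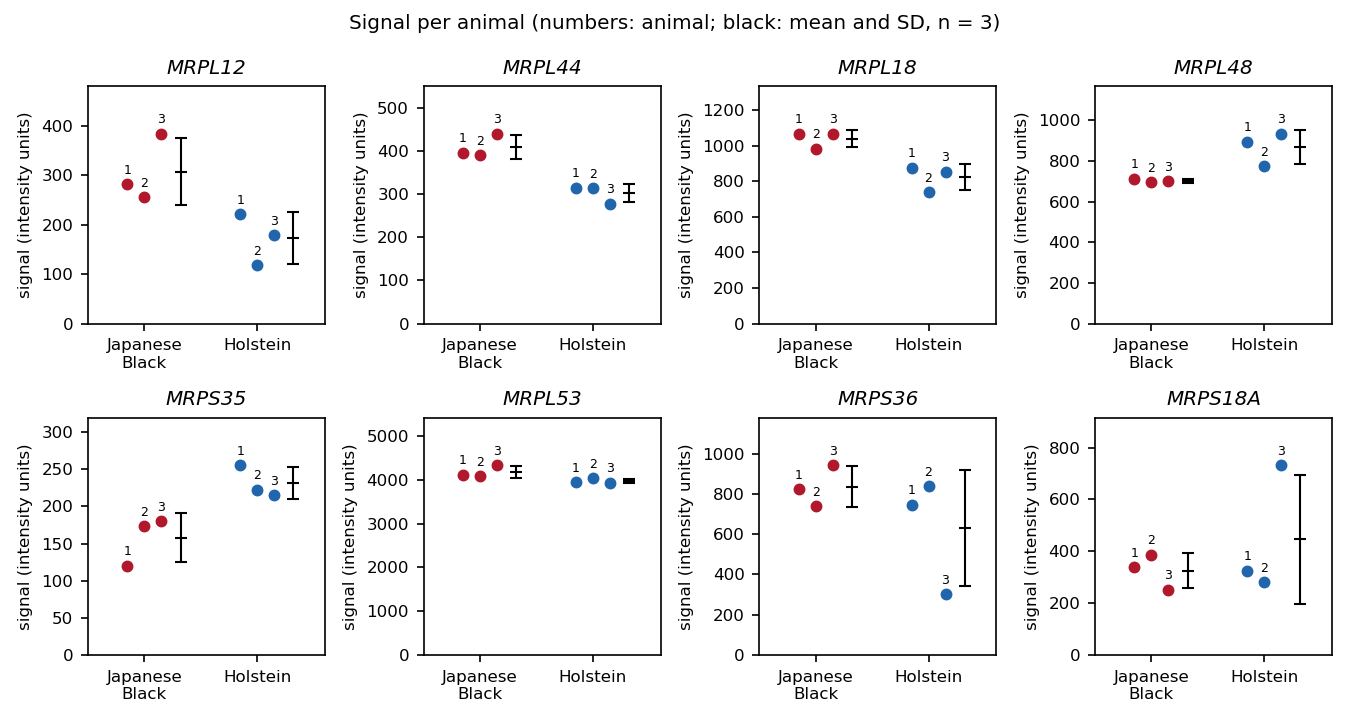
Signal in intensity units (y axis, from 0) of 8 members in each animal, by breed; digits name the animal and black marks give mean and SD of 3 animals. MRPL12, MRPL44, MRPL18 and MRPL53 are higher in every Japanese Black animal, MRPL48 and MRPS35 lower, and MRPS36 and MRPS18A are set apart by Holstein 3 (300.4 and 733).

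Some genes with an MRPS symbol are not small subunit proteins by structure. MRPS30 and MRPS18A are found in the large subunit of the mammalian mitoribosome, and MRPS36 has been assigned to the 2-oxoglutarate dehydrogenase complex. MRPS30 read 364, 464 and 396 in Japanese Black and 420, 412 and 378 in Holstein, a difference of 0.0093 (SE 0.16). Moving MRPS30 and MRPS18A to the large subunit and leaving out MRPS36 gave medians of 0.0093 for the large and -0.0083 for the small subunit.

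MRPS36 and MRPS18A had the widest spread within breeds, and in both Holstein 3 stood apart. MRPS36 read 822, 740 and 943 in Japanese Black, 746 and 839 in Holstein 1 and 2, and 300.4 in Holstein 3. Without Holstein 3 its difference was 0.070, against 0.52 (SE 0.34) with all animals. MRPS18A read 338, 387 and 252 in Japanese Black, 326 and 281 in Holstein 1 and 2, and 733 in Holstein 3. Its difference was -0.33 (SE 0.33) with all animals and 0.080 without Holstein 3. These breed values therefore rested on a single animal, in opposite directions for the 2 genes.

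MRPS18B, a related gene of the same family, was also highest in Holstein 3, at 724 against 489 to 530 in the other animals. Its difference was -0.15 (SE 0.19), and 0.032 without Holstein 3. For 9 members, at least 1 array lay more than 0.5 log2 units from the median of the other arrays, a limit set after the values were seen. Holstein 3 accounted for 6 of the 10 such values, namely low MRPS36, MRPL19, MRPL34 and MRPS14 and high MRPS18A and MRPS18B. The others were MRPL12 in Holstein 2 (low) and in Japanese Black 3 (high), MRPS6 in Japanese Black 3 (high) and MRPS35 in Japanese Black 1 (low). Over all probe sets 46.1% had such an array, and Holstein 3 had the largest share of any array, at 23.7%. Adipocyte markers were lowest in Holstein 3; their part in these values was not tested.

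From animal to animal both subunits stayed within a narrow band. The median deviation of large subunit genes from their mean over all animals was -0.031, -0.055 and 0.053 in Japanese Black 1 to 3 and 0.018, -0.061 and 0.060 in Holstein 1 to 3. For small subunit genes it was -0.022, -0.052 and 0.072 in Japanese Black and 0.043, -0.046 and 0.060 in Holstein. Each breed therefore held animals above and below the mean. The corresponding median of all probe sets was 0.098 in Japanese Black 3 and between -0.033 and 0.015 elsewhere. Japanese Black 3 and Holstein 3 were the highest array for 18 and 21 of 67 members, and were the highest for 31.4% and 24.3% of all probe sets.

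**Figure D3:**
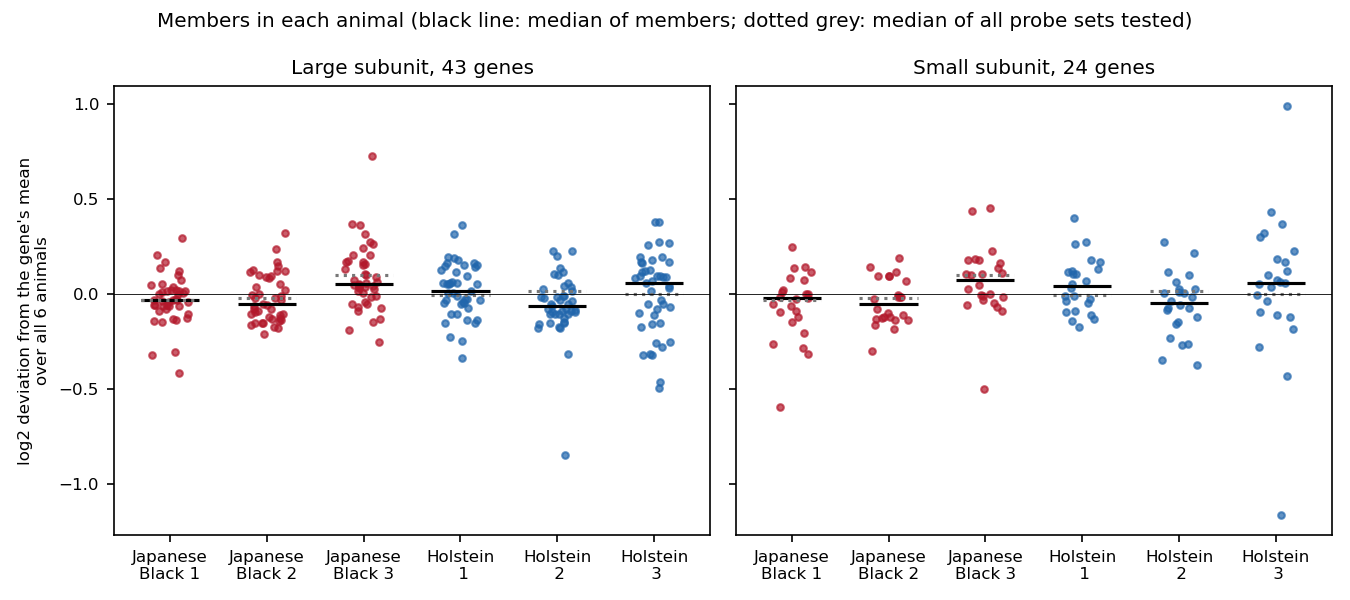
Log2 deviation of each member from its own mean over the 6 animals (y axis) in each animal (x axis), for large (left) and small (right) subunit genes. Black lines (medians of members) stay between -0.061 and 0.072 in every animal; the far points in Holstein 3 at right are MRPS18A (high) and MRPS36 (low).

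Members differed less between animals of a breed than the array as a whole did. The SD within breeds had a median of 0.14 over the 67 members, from 0.036 to 0.57, compared with 0.23 over all probe sets tested. Probe sets within the members' range of mean signal also had a median of 0.23. They shared only that range, and were not matched to the members in level or in choice of the brightest probe set. An SD of at most 0.15 was found for 58.2% of members and 21.3% of all probe sets. The medians were 0.13 for the large and 0.15 for the small subunit, and 0.14 for cytosolic ribosomal protein genes. After quantile normalization the members' median was 0.14 and that of all probe sets 0.22. These values describe the lists, and no test of the difference was made.

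**Figure D4:**
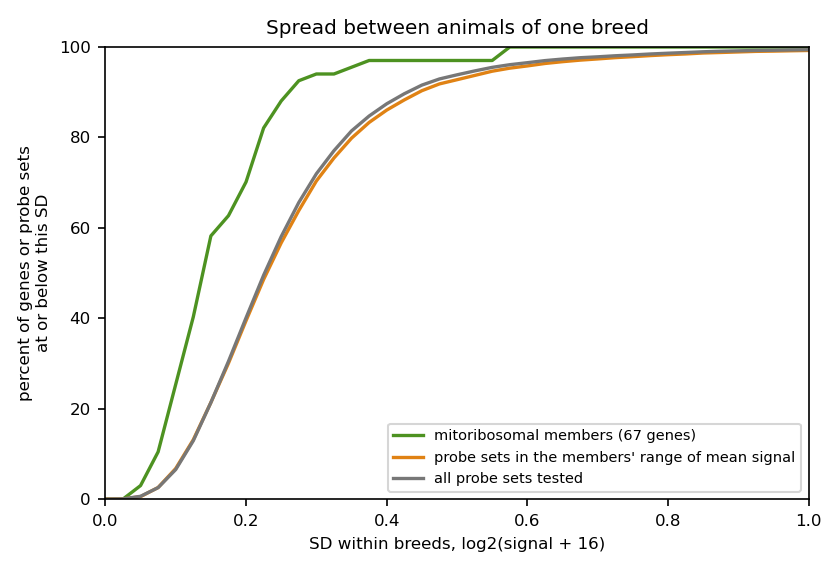
Percent of genes or probe sets (y axis) whose SD within breeds on the log2(signal + 16) scale is at or below the value on the x axis. The curve of the 67 members lies to the left of both others; at an SD of 0.15 it has reached 58.2%, against 21.3% of all probe sets.

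The members were also divided by a list of those taken to have a bacterial counterpart. The 38 on that list, with MRPL55 among them, had a median difference of 0.010, with 20 higher and 18 lower, and 10 higher after quantile normalization. The 29 not on that list, with MRPS18A, MRPS18B, MRPS36 and MRPL58 among them, had a median of -0.019. Of these, 14 were higher and 15 lower, and 6 were higher after quantile normalization. Members other than the 28 named by rule numbered 39, and their differences lay between -0.15 and 0.13, with 19 higher and 20 lower and adjusted p of at least 0.672. Among them were MRPL58, which rescues stalled mitochondrial ribosomes (-0.061, SE 0.13), and MRPL3 (0.11, SE 0.20).

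Several probe sets measured some of the genes. Of 14 such genes 9 had differences of a single sign. The 3 genes with the largest gaps were MRPL30, MRPS34 and MRPL39. In each the probe set of opposite sign was dim: MRPL30 differed by 0.25 (SE 0.17) at its bright probe set and by -0.13 at a probe set reading at most 7.83, which did not pass the filter and was not tested. MRPS34 differed by 0.088 at a probe set reading 498 to 593 and by -0.26 at a probe set reading 36.1 to 60.3. MRPL39, a protein related to threonyl-tRNA synthetase, differed by 0.097 and 0.079 at its brighter probe sets and by -0.24 at an untested one reading 9.99 to 25.6. Opposite signs were not confined to dim probe sets. MRPL57 differed by 0.083 at a probe set of mean signal 260 and by -0.12 at one of mean signal 222.

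Some mitoribosomal proteins carry other symbols. Of 5 such genes measured 3 were higher and 2 lower, with a median of 0.11 and 0 called; after quantile normalization the median was 0.022 and 0 of the 5 were without overlap. CHCHD1, a small subunit protein, read 1675, 1568 and 1520 in Japanese Black and 1400, 1390 and 1438 in Holstein, without overlap; the difference was 0.17, with an adjusted p of 0.578. GADD45GIP1, a large subunit protein, differed by 0.17, also without overlap.

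Translation factors work on the finished ribosome. Of 12 translation factors 7 were higher and 5 lower, with a median of 0.14, a range of -0.45 to 0.59 and 0 called; 5 were higher and 2 lower without overlap, where 11.0% and 8.84% of all probe sets were. GFM2, which recycles ribosomes after termination, read 63.3, 90.2 and 104 in Japanese Black and 53.0, 61.9 and 49.5 in Holstein. Its lowest Japanese Black value lay just above the highest Holstein value, and the difference was 0.50 (SE 0.19) at an adjusted p of 0.362. MTIF2, the initiation factor, read 45.3, 48.3 and 46.0 in Japanese Black and 36.6, 32.5 and 14.5 in Holstein, or 0.55 higher (SE 0.22, adjusted p 0.371). Both probe sets are dim. Over the alternatives, offsets included, the difference ran from 0.33 to 0.67 for GFM2 and from 0.28 to 0.82 for MTIF2. MTIF2 was at 0.31 without Holstein 3, its lowest array.

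The elongation factor gene GFM1 differed by 0.59 (adjusted p 0.417) without overlap, and read 239 in Holstein 3 against 483 to 682 elsewhere. TUFM, the factor that brings loaded transfer RNAs to the ribosome, differed by -0.17. Among 17 mitochondrial aminoacyl-tRNA synthetase genes, which load amino acids onto mitochondrial transfer RNAs and of which GARS1 and KARS1 also serve the cytosol, 8 were higher and 9 lower. The median was -0.0013 and 0 were called; the median was -0.078 after quantile normalization and 0.014 after median centring. NARS2 differed by 0.44 (SE 0.18, adjusted p 0.383) and IARS2 by 0.38 (SE 0.16, adjusted p 0.384), both without overlap.

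Assembly and rRNA modification genes numbered 23, with 10 higher, 13 lower, a median of -0.041 and 0 called. MTG2 and MTG1, GTPases that act on the maturing large subunit, were the first by p. MTG2 read 294, 291 and 238 in Japanese Black and 380, 338 and 411 in Holstein, that is, -0.44 (SE 0.17, adjusted p 0.362). MTG1 read 186, 208 and 212 against 244, 247 and 309, that is, -0.37 (SE 0.17, adjusted p 0.405). Neither gene overlapped between the breeds.

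Genes of mitochondrial transcription and its regulators numbered 11, with 7 higher, 4 lower, a median of 0.13 (0.068 after quantile normalization) and 0 called. Their differences ran from -1.18 to 1.11. The lowest was that of MYC, a transcription factor, which read 133, 570 and 346 in Japanese Black and 480, 430 and 1658 in Holstein, with overlap and an SE of 0.58. PPARGC1A, a coactivator of mitochondrial gene programmes, read 129, 36.4 and 158 in Japanese Black and 62.8, 33.1 and 17.6 in Holstein. It overlapped through Japanese Black 2 and differed by 1.11 (SE 0.46), with an adjusted p of 0.383. The probe set is dim: the difference was 0.70 with an offset of 64 and 1.65 without Japanese Black 2. TFB2M, an initiation factor of mitochondrial transcription, read 1054, 1206 and 1341 against 934, 1112 and 630, with overlap, and differed by 0.45 (SE 0.22, adjusted p 0.424), or 0.23 without Holstein 3.

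Cytosolic ribosomal protein genes, which build the ribosome of the cytosol, were set beside the members because they are the closest counterpart. Of 64 measured genes 56 were lower and 8 higher in the Japanese Black animals (median -0.13, 0 called), compared with 33 of 67 lower for the members. After quantile normalization the counts were 46 of 64 and 51 of 67, with medians of -0.066 and -0.078. Under that scaling the counts of lower genes therefore no longer stood apart. Without overlap, however, 18 cytosolic genes were lower and 1 higher, against 9 and 4 members, where 9.46% and 10.2% of all probe sets were. With each array centred on its median, 55 of 64 cytosolic genes and 31 of 67 members were lower, with medians of -0.11 and 0.023. The difference between the ribosomes was not tested. RPL3L, the striated muscle form of RPL3, differed by -0.57 and RPL3 by -0.39, with adjusted p of 0.321 and 0.346.

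**Figure D5:**
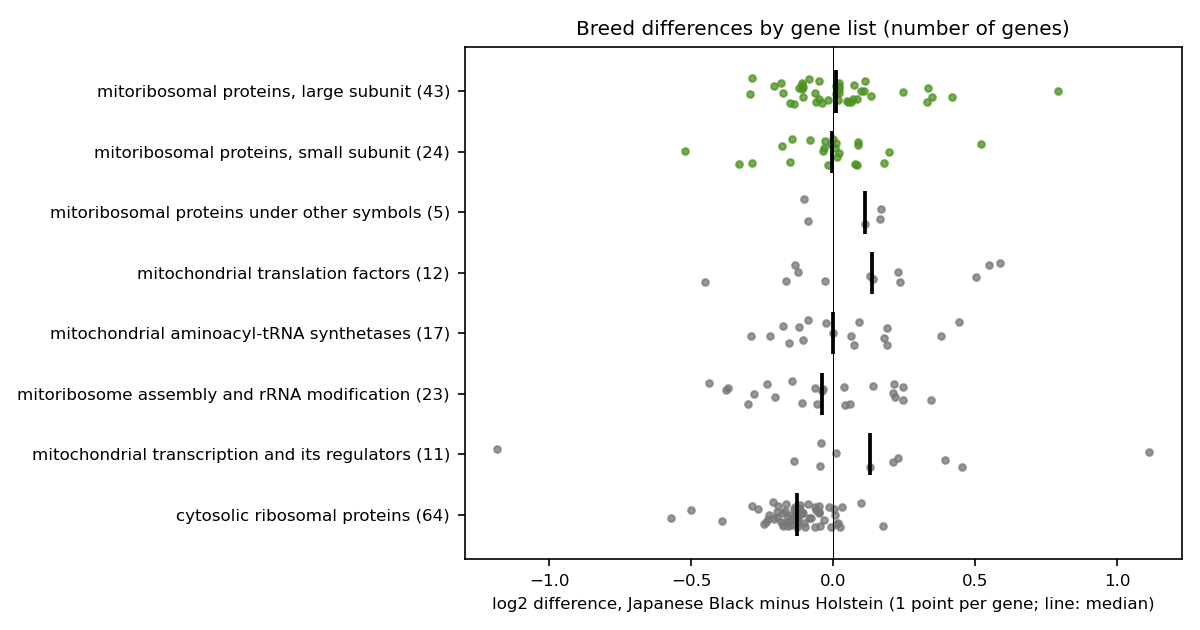
Log2 difference (Japanese Black minus Holstein, x axis) of each gene in 8 lists (y axis, number of genes in brackets), with 1 point per gene and a line at the median. Medians of the large (0.011) and small (-0.0046) mitoribosomal subunits lie close to 0 and that of cytosolic ribosomal proteins at -0.13. After quantile normalization they are -0.076, -0.088 and -0.066, and after median centring 0.027, 0.011 and -0.11.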

How the data were processed

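The values are linear intensities as the authors deposited them, for 24128 probe sets on each array. The tools named in the submitters' processing notes are Affymetrix Expression Console 1.1 and GCOS 1.1.1. How probes were summarised and arrays scaled is not given in the sources used here. Leaving out 112 control probe sets left 24016, of which 13292 had 1 gene symbol in the platform annotation, 86 several and 10638 none. All 67 members matched RefSeq by gene identifier, with 0 changed symbols.

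An offset of 16 was added before log2, the dimmest 25% by mean were left out, and limma 3.58.1, run in R 4.3.3, tested Japanese Black against Holstein (eBayes with intensity trend, two-sided, Benjamini-Hochberg over 18012 probe sets, threshold 0.05). The SEs and intervals given come from this fit, which moves each variance toward the trend over all probe sets (4.91 prior degrees of freedom). They therefore do not rest on a gene's own animals alone. No scaling between arrays was applied. A check of the step on simulated data set a limit only on the mean size of the returned differences, and none on p-values or calls. The series names a paired t-test, but pairs are not given, so the fit was unpaired.

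Named members were, per subunit, the 5 with the smallest p in each direction, the 3 brightest and the 2 with the largest SD within breeds, besides MRPS30, MRPS18A, MRPS36 and the 3 genes whose probe sets disagreed most; up to 2 genes were named per other list. MRPL10, MRPL11, MRPL3, MRPL55, MRPL57, MRPL58, TUFM, GFM1, MYC and the genes named for a single far array were added after their values were seen. Members and lists were chosen with earlier results of these data known. Plots were made by matplotlib 3.10.9 (Python 3.11.15). Alternatives changed the offset, the filter, the scaling, the model, the arrays used and the choice of probe sets.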

Additional observations from a re-analysis of the deposited data

How the results depend on the processing

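In all 23 alternatives limma or the t-test called 0 members, and the smallest adjusted p of a member was 0.191. Over all probe sets, 3 were called; the count was 0 with an offset of 1, with the dimmest 50% left out and with the plain unpaired t-test, 10 with array weights, and 0 to 15 (the latter without Holstein 2) when single arrays were left out. No paired analysis was possible because no label pairs the animals; fits under each of the 6 possible matchings called 1, 7, 0, 0, 2 and 3 probe sets. The number of members at an unadjusted p under 0.05 was 4; it was 2 to 6 without single arrays (2 without Japanese Black 1, Japanese Black 3 or Holstein 1, and 6 without Holstein 2) and 2 in the matchings numbered 1 and 3. At that p, 4.42% to 8.9% of all probe sets were higher and 3.03% to 6.18% lower without single arrays. In matchings 1 and 3, 6.12% and 5.39% were higher and 4.39% and 4.12% lower. Members without overlap numbered 10, and 13 to 22 without single arrays (22 without Holstein 2), where fewer animals make separation easier. The shares of all probe sets without overlap were not compiled for those fits, so these counts are not set against the array. The median differences moved with quantile normalization, to -0.076 for the large and -0.088 for the small subunit; without single arrays they lay between -0.049 and 0.029 for the large and between -0.021 and 0.032 for the small subunit. Over all probe sets the median lay between -0.027 and 0.035 without single arrays. Changing the filter, the trend, the test or the matching leaves a log2 difference as it is, so its sign could not turn there. With those settings counted, 863 of 879 values of the 40 genes followed kept their sign. The values that turned were small, although with all animals MRPS18A differed by -0.33 and MRPS18B by -0.15. After quantile normalization MRPL39 (-0.00495), MRPL9 (-0.059), MRPS30 (-0.078) and MRPS34 (-0.00152) turned. MRPS16 turned with median centring (0.00739) and array weights (0.00421). With the mean over all probe sets of the gene, MRPL39 (-0.023) and MRPS34 (-0.084) turned. Without single arrays MRPS30 ran from -0.084 to 0.085, MRPL9 from -0.055 to 0.061, MRPS16 from -0.033 to 0.017, MRPS18A from -0.59 to 0.080, MRPS18B from -0.24 to 0.032 and MRPS23 from -0.11 to 0.025. The cause of these changes was not tested.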
